A study of Arabidopsis thaliana with 36 samples.

Results

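A group of 154 Arabidopsis thaliana genes that the array annotation names only by locus number stood higher in hypocotyls of both max4 and axr1 than in wild-type Col-0 hypocotyls. The members were the probe sets with 1 gene, named by locus number alone, whose group mean of log2(intensity + 16) exceeded that of Col-0 hypocotyl by 1 or more in max4 and again in axr1. The loci AT4G29780, AT3G05950 and AT5G05890 were left out, so that 154 of 11930 such probe sets (1.29%) were taken, of 22746 probe sets that are not controls. Since 374 probe sets of any name or none passed the same differences, the members are only a part of a larger set. The weakest members inside the limits were AT5G39670 (differences of 1.03 in max4 and 1.01 in axr1), AT5G61590 (1.04 and 1.01) and AT5G35580 (1.14 and 1.01). Just outside lay AT5G63130 (1.64 and 1.0), AT1G10990 (1.68 and 0.99) and AT5G52750 (1.3 and 0.98).

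The study, on how dormancy and secondary growth relate, held 36 arrays in 12 groups of 3. Hypocotyls, the stem below the seed leaves, came from wild-type Col-0 and the lines max4 and axr1, and from wild-type Ler and the lines abi1 and aba1, which the labels place in Ler. Xylem and cork came from Col-0, a MYB61 knockout and a MYB50 knockout. All plants grew on compost in continuous light, each array took RNA pooled from 200 to 400 plants, and the alleles, the plants' age and the ecotype of the knockouts, max4 and axr1 are not given in the labels. The max4 and axr1 groups were compared with the same 3 Col-0 hypocotyl arrays, abi1 and aba1 with the same 3 Ler arrays, and the knockouts of a tissue with the same 3 Col-0 arrays of that tissue.

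As background, MAX4 encodes a carotenoid-cleaving enzyme of strigolactone synthesis, and AXR1 acts in the ubiquitin-related pathway through which auxin removes its repressors. ABA1 encodes an enzyme early in the synthesis of abscisic acid (ABA), and ABI1 is a type 2C protein phosphatase that restrains ABA signalling. MYB61 and MYB50 are related transcription factors, and MYB61 is known for roles in xylem formation and stomatal closure. Some loci in the group belong to families in which members respond within minutes to wounding, touch, cold or microbial molecules: AP2/ERF factors, calcium-binding proteins, RING-type ubiquitin ligases and receptor-like kinases.

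Values were scaled probe-set intensities, on which each array had a 2% trimmed mean of 100.01. The arrays had medians of 35.1 to 44.9, a scanner background of 64.2 to 132, and actin 3' to 5' ratios of 1.07 to 2.11. Every one of the 36 arrays was closest to its own group. The number of arrays limits the precision. No probe set named MYB61, MYB50, MAX4, AXR1, ABI1 or ABA1, so the mutants were not checked by their targeted gene. The annotation named no probe set for the xylem, phloem or green-tissue markers looked for, and of the suberin markers of cork it named only FACT. FACT was at 109 to 121 in Col-0 cork and 13.8 to 21.4 in Col-0 xylem.

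In max4 the members exceeded Col-0 hypocotyl by a median log2 difference of 2.12, from 1.01 to 4.81, and in axr1 by 1.56, from 1.01 to 4.41. These differences chose the members and are given as a description. A difference of at least 4-fold on this scale was seen for 84 members in max4 and 46 in axr1, and of at least 8-fold for 31 and 17. The max4 mean was above the axr1 mean for 126 members and the axr1 mean was above for 28, again on arrays that chose the members. In Col-0 hypocotyl 33 members had a mean intensity under 16.

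The 12 members with the highest mean of both differences included the adjacent genes AT4G27652 and AT4G27654 on chromosome 4. AT4G27652 read 93.4, 73.8 and 78.9 on the Col-0 hypocotyl arrays, 1821.3, 1895.3 and 1805.8 in max4, and 1362.6, 1622.5 and 1842.5 in axr1. Its neighbour AT4G27654 went from 39.4, 32.3 and 32.2 to 1086.4, 1157 and 1091.6 in max4 and to 830.2, 1044.4 and 1360.3 in axr1. No array of either mutant came near the wild type for these loci. AT4G27657, the next gene but not among the 12, was at 1, 0.5 and 4.2 in Col-0 and 178.6 to 215.4 in max4. AT2G22880, a VQ-motif protein gene, had the widest max4 difference (log2 4.81, and 3.47 in axr1). AT5G52050 (DTX50), a detoxification efflux carrier of the MATE family, known to export ABA, was at 3.9, 5.3 and 3.8 in Col-0 and at 463.5, 566.2 and 495.1 in max4. The BYPASS1-related genes AT1G18740 (4.25 in max4 and 3.64 in axr1) and AT1G74450 (4.07 and 3.49) also stood high. The others were AT3G04640, a glycine-rich protein gene, AT5G17350, AT3G10930, AT2G36220, AT3G02840, an armadillo-repeat gene, and AT2G27080, of the NDR1/HIN1-like family of membrane proteins.

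**Figure D1:**
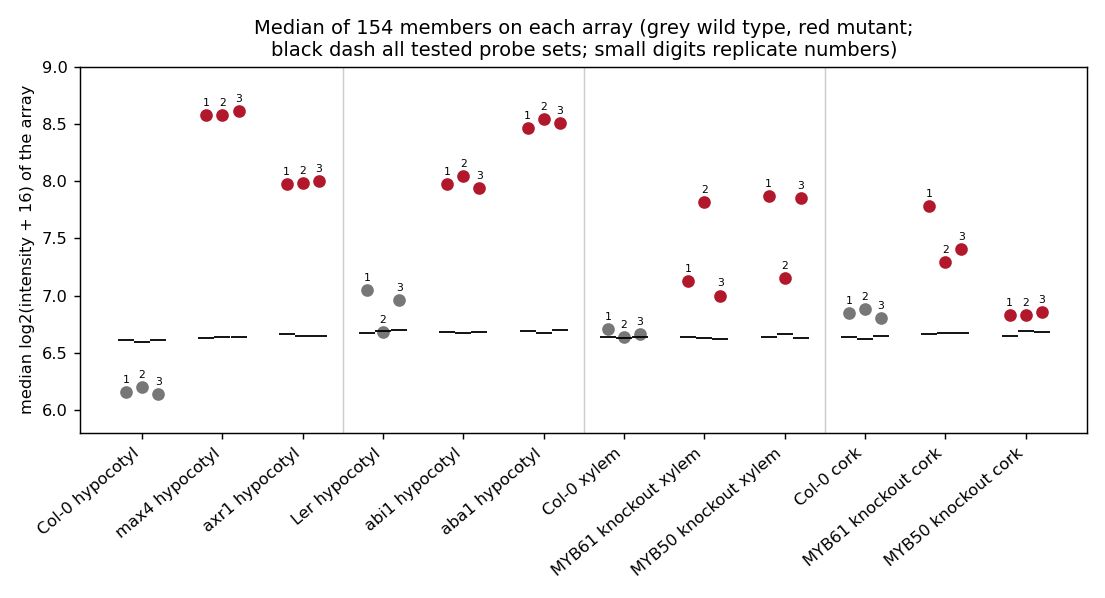
The median log2(intensity + 16) of the 154 members on each array is plotted by group, with wild types in grey, mutants in red and the median of all tested probe sets as a black dash. Col-0 hypocotyl sits lowest (6.14 to 6.2), while MYB61 knockout xylem replicate 2 (7.82), MYB61 knockout cork replicate 1 (7.78) and MYB50 knockout xylem replicate 2 (7.15) part from their own replicates. The arrays of Col-0 hypocotyl, max4 and axr1 chose the members.

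Ordered by the median of the members' mean intensities, the groups ran from Col-0 hypocotyl (56.8) through Col-0 xylem (89.0), Col-0 cork (99.2), MYB50 knockout cork (101) and Ler (107) to MYB61 knockout xylem (151), MYB61 knockout cork (170.3) and MYB50 knockout xylem (190.3). The hypocotyls of abi1 (227), axr1 (229.8), aba1 (342) and max4 (368) were highest. The places of Col-0 hypocotyl, max4 and axr1 follow in part from the rule, which chose the members on those arrays. On single arrays the medians of Ler overlapped those of Col-0 xylem, Col-0 cork and MYB50 knockout cork, and the latter pair overlapped each other. So did MYB61 knockout xylem, MYB61 knockout cork and MYB50 knockout xylem, and abi1 and axr1. A bulk sample cannot tell fewer cells of a type from less RNA per cell. Of the 154 members, 153 entered the tests below; AT1G51090, a heavy-metal-associated domain gene, was too dim.

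Hypocotyls of abi1, a line that responds poorly to ABA, were set against Ler to see how the group stood in them. Most members were higher there. In limma's test, 94 of 153 members were called higher than in Ler at an adjusted p under 0.05, against 4.67% of all 15924 probe sets tested. A further 8 members (5.23%) were called lower, near the 5.76% of all. The median log2 difference of the members was 0.75, and that of all probe sets -0.01. Each p rests on the spread between RNA pools, which the labels do not say were grown apart. Without overlap of the arrays, 103 members were higher, against 12.4% of all. Across these arrays the actin ratio was 1.49 to 1.85 in abi1 and 1.25 to 1.29 in Ler. The suberin gene FACT was at 110.1 ± 10.6 in abi1 and 269 ± 6.31 in Ler (SD, n = 3; log2 -1.18, limma adjusted p = 1.4e-08). The part of either in the differences was not tested.

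Among signalling and regulatory members, AT1G19210, an AP2/ERF transcription factor gene, read 137.8, 135.3 and 145.3 in abi1 and 8.4, 5.2 and 2.4 in Ler. The groups were far apart, with Ler near the background (log2 2.87, SE 0.27, adjusted p = 3.3e-09). AT4G27280, an EF-hand calcium-binding protein gene, read 1876.4, 1629.7 and 1617.4 in abi1, and 645.3, 61.7 and 216.2 in Ler. Its Ler arrays were spread widely, with replicate 1 high, yet none reached abi1 (2.91, SE 0.36, adjusted p = 6.5e-07). AT2G22880 rose from 77, 31.7 and 37 to 477.8, 657.2 and 612.9 (3.27, SE 0.36, adjusted p = 1e-07). Of the other large rises, AT2G27080 changed by 2.94 (SE 0.25), AT3G04640 by 3.14 (SE 0.29), AT3G57450 by 3.01 (SE 0.18), AT4G27654 by 3.0 (SE 0.27) and AT5G17350 by 2.88 (SE 0.26), each at adjusted p of 3.4e-09 or below.

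The falls in abi1 were small. AT5G59050 went from 214.1, 220.3 and 180 in Ler to 125.5, 126.7 and 104.5 (log2 -0.71, SE 0.14, adjusted p = 0.00091), with no overlap. AT3G50350 fell by 0.52 (SE 0.1) and AT5G43150 by 0.71 (SE 0.16). AT4G14060, of the major latex protein-like family, fell by 0.73 (adjusted p = 0.018). AT5G35580, a protein kinase gene close to the background, fell by 0.59 (adjusted p = 0.013). The call of AT4G14060 was lost without Ler replicate 1 (adjusted p = 0.059), Ler replicate 3 (0.055) or abi1 replicate 2 (0.11), that of AT5G43150 without abi1 replicate 2 (0.052), and that of AT5G35580 without Ler replicate 2 (0.057), Ler replicate 3 (0.064) or abi1 replicate 1 (0.09). With a pseudocount of 1, AT4G14060 (0.1) and AT5G35580 (0.059) also lost their calls, as did AT5G35580 with the arrays of both groups alone (0.054).

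In aba1 the rise was wider. limma called 118 of 153 members higher than in Ler, against 11.8% of all probe sets tested, and 10 lower, against 15.3%. The members' median difference was 1.4, with -0.02 for all probe sets, and 94 members were both called and at least 2-fold higher, against 2.55% of all. The arrays did not overlap for 122 members that were higher, against 19.9% of all. FACT was at 159 ± 24.1 in aba1 and 269 ± 6.31 in Ler (SD, n = 3; log2 -0.71, limma adjusted p = 2.2e-05), and the actin ratio was 1.36 to 1.45 in aba1 and 1.25 to 1.29 in Ler. The part of either in the differences was not tested.

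AT1G19210 again led, at 305.8, 378 and 331.3 in aba1 against 2.4 to 8.4 in Ler (log2 4.06, SE 0.27, adjusted p = 8.6e-13). AT2G27080 read 773, 885.1 and 763.4 in aba1, and 48.4, 25.9 and 36.2 in Ler. The lowest aba1 array was far above the highest Ler array (3.98, SE 0.25, adjusted p = 2.7e-13). AT3G02840 rose by 3.84 (SE 0.38), AT5G17350 by 3.83 (SE 0.26), AT1G74450 by 3.51 (SE 0.2) and AT4G27657 by 3.48 (SE 0.25). AT3G04640 and AT3G57450 each rose by 3.53. Of the members that fell, AT3G21670 (NPF6.4), of the NRT1/PTR family of nitrate and peptide transporters, read 343, 356 and 412.2 in aba1 and 1046.4, 832.5 and 833.4 in Ler (-1.25, SE 0.14, adjusted p = 4.6e-08). The remorin gene AT5G23750, of a family of membrane-raft proteins, fell by 1.36 (SE 0.09). AT1G19960 fell by 1.55 (SE 0.15), AT5G59050 by 1.78 (SE 0.14) and AT5G43150 by 1.17 (SE 0.16). For these 5 the aba1 and Ler arrays did not overlap.

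Tested directly, 63 members were lower in abi1 than in aba1, against 7.35% of all probe sets, and 9 were higher, against 8.07%. The members' median difference, abi1 minus aba1, was -0.48. AT5G35580 was under 16 on all 3 abi1 arrays (mean 8.27), and read 67.9, 89 and 76.5 in aba1 and 16.1, 22 and 22.6 in Ler (abi1 minus aba1 -1.96, SE 0.16, adjusted p = 2.2e-10). The mutant arrays thus lay on opposite sides of the wild type. The fall from Ler in abi1 was near the background, however, and lost its call under 5 alternatives. AT5G64870, a flotillin-like gene, was at 21, 33.4 and 24.4 in abi1 and 150.5, 117.1 and 125 in aba1 (-1.8, SE 0.29). AT5G52020, an AP2/ERF gene (-1.67), and AT3G27540, a family 17 glycosyltransferase gene (-1.54), were also lower in abi1. In the other direction stood AT3G21670 (1.37), AT1G19960 (1.09) and AT5G59050 (1.07), each of which had also fallen in aba1 against Ler. AT2G38870, a protease inhibitor gene, was higher in abi1 by 1.18, with abi1 arrays at 104.2, 255.9 and 306, and this call was lost without aba1 replicate 2 or 3 or abi1 replicate 2 or 3 (adjusted p of 0.075, 0.091, 0.1 and 0.16).

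**Figure D2:**
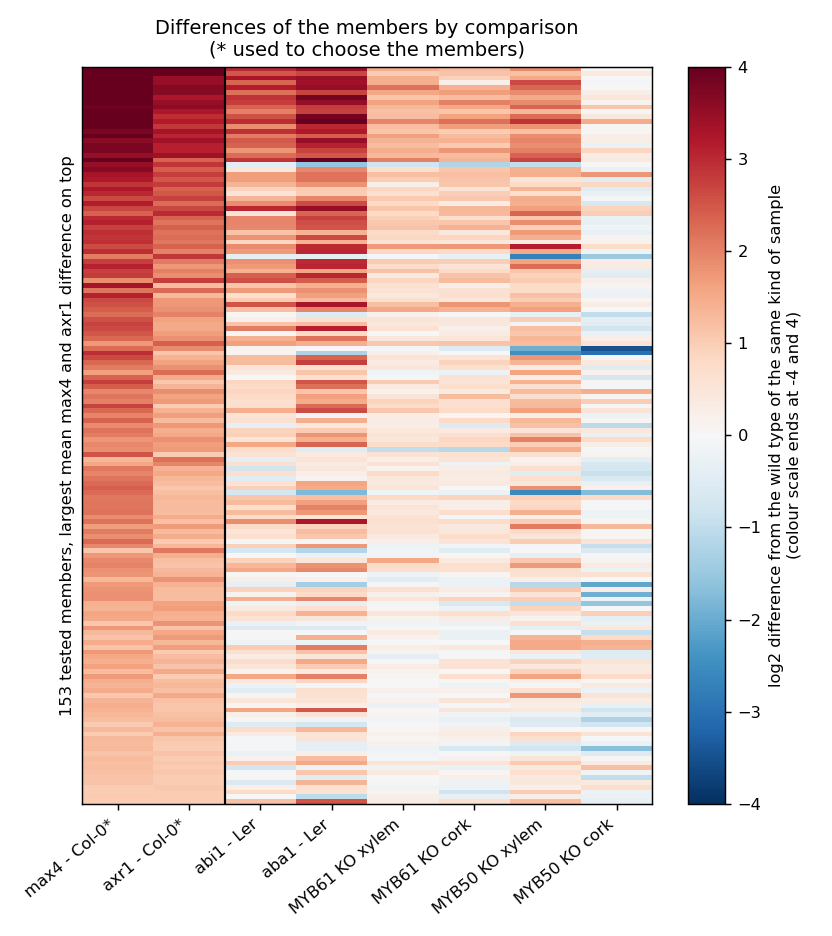
Each row is 1 of the 153 tested members, ordered by the mean of its max4 and axr1 differences, and each column a comparison, coloured by the log2 difference from wild type. The first pair of columns chose the members. The abi1, aba1, MYB61 and MYB50 xylem columns are mostly red, strongest near the top, while the MYB50 cork column is pale with 32 calls higher and 30 lower.

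In xylem of the MYB61 knockout, limma called 42 of 153 members higher than in Col-0 xylem, against 1.22% of all probe sets tested, and 1 lower, against 0.659%. The members' median difference was 0.44 and that of all probe sets -0.02. The 3 knockout arrays were unlike each other. Replicate 2 held the highest of the 3 values for 134 of the 154 members (87.0%), against 32.9% of all tested probe sets. Its member median was 209.8, while replicates 1 and 3 had 124 and 112. Without replicate 2, 18 members were called higher, and a fit on the 6 arrays compared called 8. Without overlap of the arrays, 80 members were higher, against 6.07% of all. The actin ratio of that array (1.19) lay between those of its replicates (1.16 and 1.27), and its array weight was 0.449, against 0.947 and 1.0.

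AT2G27080 read 202.7, 580.1 and 267.7 in the knockout xylem and 61, 83.3 and 67.4 in Col-0. All knockout arrays were above all Col-0 arrays, replicate 2 by the most (log2 1.95, SE 0.25, adjusted p = 1.5e-05). AT3G04640 read 432.7, 788.8 and 388.6, against 101.9, 89.3 and 113.4 (2.17, SE 0.29, adjusted p = 3.2e-05). AT1G19210 rose by 2.01 (SE 0.27), AT5G58680, an armadillo-repeat gene, by 1.64 (SE 0.23), AT1G74450 by 1.61 (SE 0.2) and AT3G05500, of the rubber elongation factor family of lipid-droplet proteins, by 1.54 (SE 0.21). AT1G61890, a MATE transporter gene, read 145.1, 592.4 and 68.1 against 45.3, 45.6 and 47.4, and its call (1.7, SE 0.41, adjusted p = 0.019) was lost with the arrays of both groups alone (adjusted p = 0.45), without MYB61 knockout xylem replicate 2 (0.24) and without Col-0 xylem replicate 2 (0.064) or 3 (0.061). The call of AT1G11210 (1.55, SE 0.4, adjusted p = 0.029) was lost without Col-0 xylem replicate 2 (0.079) or 3 (0.31), without MYB61 knockout xylem replicate 1 (0.13) or 2 (0.12), and with the arrays of both groups alone (0.33). The single fall was AT1G19960, at 180.7, 254.9 and 186.4 against 331.1, 317.3 and 472.5 (-0.8, SE 0.15, adjusted p = 0.0027). Fitted on the arrays of both groups alone, AT2G27080, AT1G19210, AT5G58680, AT1G74450, AT3G05500 and AT1G19960 had adjusted p of 0.089, 0.08, 0.062, 0.063, 0.096 and 0.21.

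In cork of the same knockout, 59 of 153 members were called higher than in Col-0 cork, against 3.89% of all probe sets, and 5 lower, against 4.11%. The median difference was 0.47, with 0.0 for all probe sets, and 80 members were higher without overlap, against 11.4% of all. Here replicate 1 was the high array, with the highest value for 111 members (72.1%, against 39.0% of all tested) and a member median of 204, against 140.1 and 155. It also had the lowest weight of the 36 arrays (0.218). Leaving out 1 array at a time gave 42 to 64 members called higher, and the arrays of both groups alone gave 27. FACT was at 76.4 to 90.8 in the knockout cork and 109 to 121 in Col-0 cork (log2 -0.38, adjusted p = 0.041); its part in these differences was not tested.

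AT2G27080 read 525.2, 323.9 and 315 in the knockout cork and 93.1, 65.7 and 54.2 in Col-0 cork, a gap several times the spread (log2 2.2, SE 0.25, adjusted p = 7.3e-07). The BYPASS1-related pair rose together, AT1G74450 by 2.01 (SE 0.2) and AT1G18740 by 1.68 (SE 0.21). AT3G62260, a type 2C protein phosphatase gene, read 371.9, 172.8 and 168.6 against 71.1, 58.3 and 50.6 (1.66, SE 0.25, adjusted p = 7.9e-05). AT5G66650, of the mitochondrial calcium uniporter family, rose by 1.76 (SE 0.26), as did AT1G58420 (SE 0.28). AT1G61890 (1.72, adjusted p = 0.0076) and AT3G02840 (1.62, adjusted p = 0.0062) lost their calls without MYB61 knockout cork replicate 1 (0.055 and 0.079). With the arrays of both groups alone, AT3G02840, AT5G66650, AT3G47540 and AT1G21000 lost their calls (adjusted p of 0.12, 0.075, 0.05 and 0.12). AT1G19960 fell again, to 120, 101.8 and 123.6 from 225.3, 346.5 and 301.3 (-1.21, SE 0.15, adjusted p = 5.6e-06). AT3G47540, of a chitinase family, fell by 0.79, AT2G17710 by 0.65 and AT1G67920 by 0.53 (adjusted p = 0.02), the last losing its call without Col-0 cork replicate 2 (0.087) or MYB61 knockout cork replicate 2 (0.072). The call of AT1G21000, a PLATZ zinc-binding protein gene (-0.31, adjusted p = 0.048), was lost without any 1 of the 6 arrays (adjusted p of 0.055 to 0.19).

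Whether the MYB61 knockout effect differed between xylem and cork was tested as a contrast of its own. Of 153 members, 1 was called with the higher effect in xylem, against 0.0816% of all probe sets, and 0 with the lower, against 0.0314%; at an unadjusted p under 0.05 there were 8 and 7. The median difference of effects was 0.01. The called member, AT2G32160, read 63, 64.7 and 61.3 in knockout xylem against 44.8, 58 and 31.3, and 151, 174.8 and 160.8 in knockout cork against 198.9, 198 and 195.3 (0.67, SE 0.14, adjusted p = 0.049). Its call was lost under 18 alternatives, among them leaving out any array of knockout xylem or Col-0 cork.

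**Figure D3:**
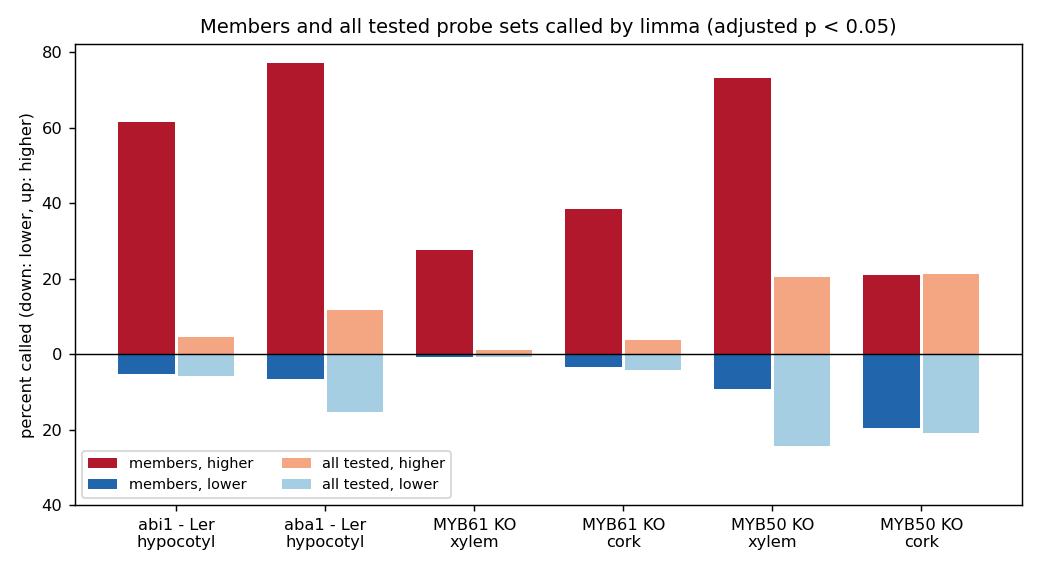
Bars give the percent of the 153 tested members (dark) and of all 15924 tested probe sets (pale) that limma called higher (upward) or lower (downward) in 6 comparisons with wild type. The dark upward bars exceed the pale ones in every comparison except MYB50 knockout cork, where 20.9% of members and 21.3% of all probe sets were called higher.

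In xylem of the MYB50 knockout, where a large share of the array was called, 112 of 153 members were higher than in Col-0 xylem, against 20.4% of all probe sets tested, and 14 lower, against 24.2%. The members' median difference was 0.97 and that of all probe sets -0.02. Of the 153, 109 were higher without overlap, against 23.7% of all. Replicate 2 was the low array of this group, with a member median of 126 against 217 and 215, and held the highest value for 9 members.

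The MATE transporter gene AT1G61890 read 759.6, 274.9 and 697.7 against 45.3, 45.6 and 47.4 in Col-0, and even its lowest knockout array was well above wild type (log2 3.13, SE 0.41, adjusted p = 2.5e-07). AT5G52050, of the same family, read 511, 139.3 and 529.2 against 80.3, 30 and 25.1 (2.65, SE 0.45, adjusted p = 1.8e-05). AT2G27080 rose by 2.88 (SE 0.25), AT1G19210 by 2.69 (SE 0.27), AT5G65300 by 2.35 (SE 0.27), AT5G64870 by 2.33 (SE 0.29), AT3G10930 by 2.33 (SE 0.21) and AT3G04640 by 2.29 (SE 0.29). Several falls were larger than any in abi1. AT3G62960, a glutaredoxin gene, read 28.6, 21.9 and 30.3 against 243.7, 173.5 and 432.4 (-2.71, SE 0.26, adjusted p = 1e-09). AT5G59050 dropped from 517.6, 426.1 and 447.8 to 68.8, 57.9 and 64.9 (-2.58, SE 0.14, adjusted p = 8.5e-15). AT3G21670 fell by 2.45 (SE 0.14), AT1G22160, of the FLZ zinc-finger family, by 1.95 (SE 0.2) and AT5G23750 by 1.11 (SE 0.09).

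Cork of the MYB50 knockout differed from the other comparisons. Of 153 members, 32 were called higher than in Col-0 cork, against 21.3% of all probe sets, and 30 lower, against 20.9%, so both shares were near the background. The median difference was -0.02. Without overlap 41 members were higher, against 26.7% of all, and 49 lower, against 26.0%. One of the 3 knockout arrays, replicate 1, is marked as a repeat in the labels and had the highest actin ratio of the series (2.11), and its member median (97.9) lay between 97.8 and 100.4. FACT was at 216 to 242 in the knockout cork and 109 to 121 in Col-0 cork (0.9, adjusted p = 2.7e-07); its part in these differences was not tested.

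AT1G15010 read 143.1, 149 and 173.9 against 34.2, 33.3 and 37 (log2 1.75, SE 0.21, adjusted p = 4.5e-08). AT3G25290, of a family of membrane cytochromes with a DOMON domain, read 256.8, 255.2 and 240.3 against 78.6, 82.8 and 86.3 (1.44, SE 0.17, adjusted p = 4.1e-08). In both, the groups were clearly apart with close replicates. AT2G27080 rose by 1.48 (SE 0.25), AT2G36650 by 1.45 (SE 0.22), AT1G25550, a MYB-like factor gene, by 1.37 (SE 0.16), AT3G17120 by 1.29 (SE 0.32), AT4G14060 by 1.19 (SE 0.2) and AT3G10930 by 1.12 (SE 0.21). The falls were steeper than the rises. AT1G22160 read 101.1, 152.3 and 116.5 against 1555.8, 1637.9 and 1389.3 (-3.48, SE 0.2, adjusted p = 6.5e-15). AT3G21670 read 44.4, 55.5 and 50.6 against 493.4, 527.8 and 483.7 (-2.97, SE 0.14, adjusted p = 1.5e-16). AT5G23750 fell by 2.09 (SE 0.09), AT3G04210, a gene with the TIR domain of immune receptors, by 1.91 (SE 0.22) and AT5G59050 by 1.74 (SE 0.14).

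The difference of the MYB50 knockout effects between tissues was called for 94 members with the higher effect in xylem, against 8.73% of all probe sets, and for 4 with the lower, against 9.46%. The median difference of effects was 0.9. AT5G52050 differed by 2.7 (SE 0.64, adjusted p = 0.0029), with 4 of the 6 cork arrays under 16. AT3G04210 differed by 2.46 (SE 0.32, adjusted p = 1.4e-06), being higher in knockout xylem (53.6, 30.4 and 46.5 against 28.3, 29.6 and 15.4) and lower in knockout cork (6.6, 26.6 and 20.6 against 91.3, 116.3 and 115). AT1G61890 differed by 2.4 (SE 0.58) and AT1G19210 by 2.33 (SE 0.38). The lower effects in xylem were those of AT3G62960 (-1.21), AT1G19960 (-1.01), AT5G59050 (-0.84) and AT1G22030 (-0.79, adjusted p = 0.036). The call of AT3G62960 (adjusted p = 0.022) was lost without Col-0 xylem replicate 3 (0.097) and with a pseudocount of 64 (-0.43, adjusted p = 0.38), and that of AT1G22030 without any Col-0 cork replicate, Col-0 xylem replicate 1 or 3, knockout cork replicate 3 or knockout xylem replicate 1 (0.055 to 0.15). Of the members called in both tissues of this knockout, 29 were higher in both, against 11.7% of all probe sets, 11 lower in both, against 12.6%, and 6 higher in xylem but lower in cork, against 0.622%.

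Between the wild-type tissues themselves, 28 members were higher in Col-0 xylem than in Col-0 cork, against 19.8% of all probe sets, and 40 were lower, against 20.4%. Without overlap 37 were higher, against 25.6% of all, and 62 lower, against 24.6%. AT2G41480 (PRX25), a peroxidase gene, read 268.6, 338.8 and 392.5 in xylem and 29.8, 22.8 and 20.1 in cork (log2 3.11, SE 0.18, adjusted p = 1.8e-15). AT1G25530, of an amino acid transporter family, was higher by 2.65, AT4G21650, a subtilase-type protease gene, by 2.51 and AT1G22030 by 2.36. AT4G14060 read 189.5, 199.2 and 195.2 in cork and 15.1, 4.7 and 9 in xylem (-3.06, SE 0.2). AT3G62960 (-2.72), AT1G65690, of the NDR1/HIN1-like group (-1.92), and AT2G32160 (-1.84) were also higher in cork. In all of these the tissues did not overlap.

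Grouped by what their families are known to do, 52 members fell into 18 families of at least 2 loci, a grouping made after the values were seen. Beside their counts stand the shares of all probe sets called higher, which were 4.67% in abi1, 11.8% in aba1, 1.22% and 3.89% in xylem and cork of the MYB61 knockout, and 20.4% and 21.3% in those of the MYB50 knockout. All 4 EF-hand calcium-binding members (AT3G01830, AT3G25600, AT4G27280 and AT5G39670), sensors of calcium signals, were called higher in abi1 and in aba1, 3 in MYB50 knockout xylem, and 0 in MYB61 knockout xylem, MYB61 knockout cork and MYB50 knockout cork. From a count of 0 of 4 nothing is read at these shares. In aba1 their log2 differences were 3.22, 1.34, 3.2 and 2.51. Of 4 RING-type ubiquitin ligase members, which mark proteins for breakdown, 3 rose in abi1, 3 in aba1, 2 in MYB61 knockout xylem, 3 in MYB61 knockout cork and 4 in MYB50 knockout xylem. AT1G20823 and AT5G66070 rose in each of these 5 comparisons (2.63 and 1.91 in aba1). The 5 protein kinase members all rose in aba1, among them AT5G47070 (2.2), AT4G25390 (1.78) and AT3G09830 (1.17), while in abi1 2 rose and 1 fell. In MYB50 knockout cork 0 EF-hand and 0 RING-type members were called either way, and 1 kinase member was called higher and 1 lower. There 3 of 4 NDR1/HIN1-like and 3 of 4 protease members were called higher. The remaining member of each was called lower (AT1G65690 by 0.98 and AT1G24140 by 0.75).

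Among the AP2/ERF factors, AT1G19210 rose in 5 comparisons and AT5G52020 in aba1 (2.52) and MYB50 knockout xylem (1.39). AT5G61590 (DEWAX), a repressor of wax synthesis, fell in aba1 by 1.03, and AT5G07580 rose only in abi1, by 0.56. Of the 3 TIR-domain members, 1 rose in abi1, 3 in aba1, 2 in MYB61 knockout cork and 3 in MYB50 knockout xylem. The BYPASS1-related pair, the armadillo-repeat pair, the family 17 glycosyltransferase pair and the family 17 glycoside hydrolase pair were each called higher in full in abi1, aba1 and MYB50 knockout xylem. In the family 17 glycoside hydrolases, enzymes of beta-glucan breakdown, AT3G55430 rose by 2.6 in aba1 and AT2G27500 by 1.92. The remorins parted: AT5G23750 fell in 4 comparisons, whereas AT2G45820 rose in MYB50 knockout cork by 0.36 and was not called in the other 5. Glutaredoxin members also parted, AT5G13810 rising by 0.49 in abi1 and 0.56 in aba1 and AT3G62960 called lower only in the MYB50 knockout.

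Across the 6 comparisons with wild type, 9 members were called higher in all, against 0.170% of all probe sets, 31 in 5, against 0.659%, and 20 in none, against 62.7%. Since abi1 and aba1 share the Ler arrays, and the knockouts of a tissue the Col-0 arrays, these counts are a description. In both ABA mutants and both tissues of the MYB61 knockout, 36 were called higher, against 0.672% of all. Of these, the 10 whose lowest rise was highest were AT2G27080, AT1G61890, AT1G74450, AT1G18740, AT1G58420, AT3G04640, AT4G27657, AT1G19210, AT3G10930 and AT5G65300. The count of 36 rests on the 42 calls in MYB61 knockout xylem, which became 18 without its replicate 2. Without that array AT1G61890 lost its xylem call (limma adjusted p = 0.24). With the compared arrays alone, so did AT1G61890 (0.45), AT2G27080 (0.089), AT1G74450 (0.063) and AT1G19210 (0.08). Of the 94 members higher in abi1, 82 (87.2%) were among the 112 higher in MYB50 knockout xylem (73.2% of these), and 55 (58.5%) among the 59 higher in MYB61 knockout cork (93.2%). The aba1 and MYB50 knockout xylem lists had 103 in common (87.3% of 118 and 92.0% of 112). The wild-type arrays of these pairs differ, so no control is shared, but the overlaps were not tested. For scale, 61.4% of all 153 members were higher in abi1, 77.1% in aba1, 38.6% in MYB61 knockout cork and 73.2% in MYB50 knockout xylem.

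Members with a larger max4 difference were called higher more often in 5 of the 6 comparisons, a description with no test. The shares of all tested probe sets called higher were 4.67% in abi1, 11.8% in aba1, 1.22% and 3.89% in MYB61 knockout xylem and cork, and 20.4% and 21.3% in those of MYB50. Of the 31 with 3 or more in max4, 28 were higher in abi1, 30 in aba1, 18 in MYB61 knockout xylem, 21 in MYB61 knockout cork, 29 in MYB50 knockout xylem and 4 in MYB50 knockout cork. Of the 69 with a max4 difference of 1 to 2, the counts were 27, 44, 9, 12, 39 and 21. Their median log2 difference in abi1 was 0.32, against 2.2 in the upper class, and in MYB61 knockout cork 0.07 against 1.14. Over the 153 members, which share arrays and are not independent, the max4 difference correlated with that of abi1 at r = 0.73, aba1 at 0.66, MYB61 knockout xylem at 0.74 and cork at 0.65, and MYB50 knockout xylem at 0.47 and cork at 0.11. The max4 difference also chose the members, so all lie at 1 or more. No r over all probe sets stands beside these values, and nothing is concluded from them.

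**Figure D4:**
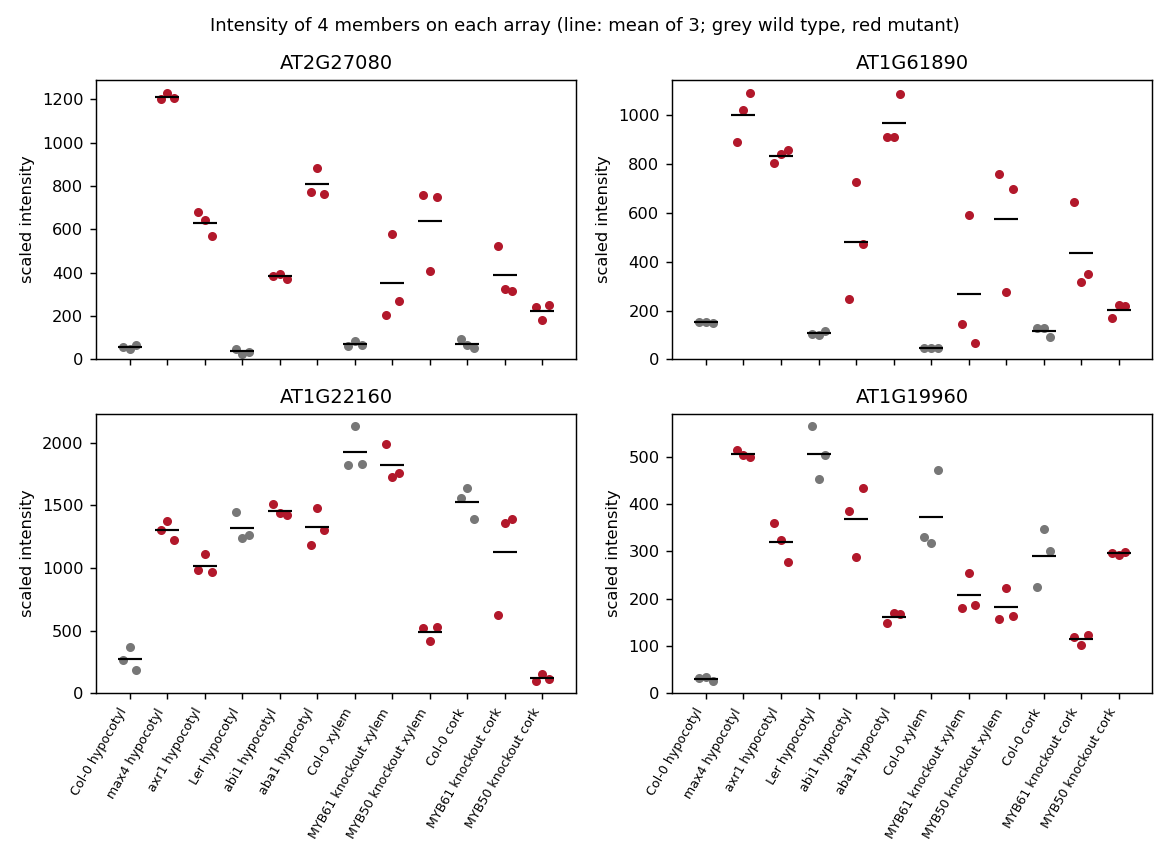
Intensities on every array, with the mean of 3 as a line, are shown for AT2G27080 and AT1G61890 (upper panels) and for AT1G22160 and AT1G19960 (lower panels). The upper pair is low in the 4 wild-type groups and high in most mutants, whereas the lower pair is low in Col-0 hypocotyl but high in Ler, Col-0 xylem and Col-0 cork.

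The 20 members called higher in none of the 6 comparisons were picked out by those calls, which leaves only falls or no call. Of these, 4 were lower in abi1, 9 in aba1, 1 in MYB61 knockout xylem, 3 in MYB61 knockout cork, 12 in MYB50 knockout xylem and 13 in MYB50 knockout cork, 9 of them in both tissues of the MYB50 knockout. Of the 9984 probe sets of the whole array likewise called higher in none, 5.77%, 18.5%, 0.611%, 5.13%, 35.2% and 29.1% were called lower in these comparisons, in the same order. AT1G22160 was at 265.3, 366.8 and 188 in Col-0 hypocotyl, 1301.2, 1377.7 and 1220.4 in max4, and 1447.3, 1236.9 and 1262.3 in Ler. Wild-type Ler was thus as bright as max4. AT1G19960 was at 31.9, 34.3 and 25.8 in Col-0 hypocotyl and 563.8, 451.9 and 504 in Ler, and AT3G62960 at 77.5, 78.4 and 118.6 and at 2059.2, 1576.9 and 1626.7. For these loci Col-0 hypocotyl stood below every other group except, for AT1G22160, MYB50 knockout cork and, for AT3G62960, MYB50 knockout xylem. The others were AT1G21000, AT1G22030, AT1G25530, AT2G17710, AT2G41480, AT2G43140, AT3G21670, AT3G50350, AT3G56360, AT4G09890, AT4G19430, AT4G28085, AT4G28400, AT5G23750, AT5G43150, AT5G59050 and AT5G61590.

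The spread between replicates exceeded that of the array as a whole by the most in 3 groups. The median SD of 3 arrays on the log2 scale was 0.35 for the members and 0.13 for all tested probe sets in MYB61 knockout xylem, 0.35 and 0.14 in MYB61 knockout cork, and 0.36 and 0.12 in MYB50 knockout xylem. In these groups 88 (57.1%), 75 (48.7%) and 99 (64.3%) of the members had an SD above the 90th percentile of all tested probe sets. Ler came next (0.2 and 0.11, with 33.1% of members above that percentile), with replicate 1 highest for 106 members, then abi1 (0.18 and 0.13, 20.1%) and Col-0 xylem (0.15 and 0.12, 22.1%). In max4 (0.07 and 0.09), axr1 (0.09 and 0.11), aba1 (0.1 and 0.1), Col-0 hypocotyl (0.12 and 0.12), Col-0 cork and MYB50 knockout cork (each 0.13 and 0.11) both medians were within 0.02. Pooled over all groups, AT5G52050 (0.62), AT1G61890 (0.56), AT1G19020 (0.54) and AT1G11210 (0.54) varied most, and AT1G64140 (0.08), AT1G25530 (0.11), AT5G23750 (0.11) and AT3G50350 (0.12) least. AT1G64140, at 225.6 to 230.8 in Col-0 hypocotyl, differed from it by 1.15 in both max4 and axr1.

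**Figure D5:**
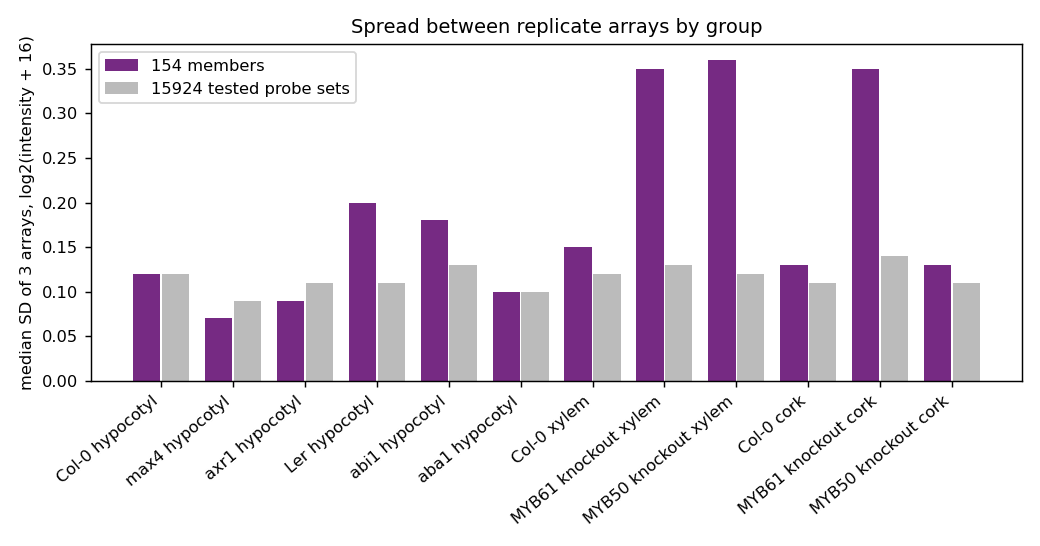
Bars give the median SD of log2(intensity + 16) over the 3 arrays of a group for the 154 members (purple) and for all 15924 tested probe sets (grey). Members vary 0.35 to 0.36 in both MYB61 knockout tissues and in MYB50 knockout xylem, against 0.12 to 0.14 for all probe sets.

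The array that was high or low was so for most members at once. The mean levels of each member over the 9 groups not used to choose it, correlated with the median profile of the other members, gave a median r of 0.77, with 69 at 0.8 or more and 15 below 0. These correlations are a description over 9 group means with shared control arrays. The lowest were those of AT5G43150 (-0.67), AT1G19960 (-0.5), AT5G59050 (-0.49) and AT5G61590 (-0.42). By position the members were spread over chromosomes 1 to 5 (41, 27, 29, 20 and 37), and 7 pairs lay within 5 genes of each other in the reference gene order. Besides the run AT4G27652, AT4G27654 and AT4G27657, these were AT1G25530 with AT1G25550, AT1G67880 with AT1G67920, AT4G32020 with AT4G32060, AT5G14700 with AT5G14730, and AT5G52020 with AT5G52050.

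Named genes of rapid stress responses, none of them members, were set beside the group. Of 50 genes listed, the annotation named a probe set for 10, and 9 were tested. The annotation gave no gene for 8794 probe sets, so the others are not known to be absent from the array. Called higher were 8 in abi1, 8 in aba1, 4 in MYB61 knockout xylem, 5 in MYB61 knockout cork, 8 in MYB50 knockout xylem and 1 in MYB50 knockout cork, and 0 were called lower in any of these. Over all probe sets tested, the shares called higher were 4.67%, 11.8%, 1.22%, 3.89%, 20.4% and 21.3%, in the same order. PUB24 was called in none of these comparisons, and WRKY53 was lower in axr1 than in Col-0 hypocotyl (log2 -0.4). STZ was the brightest of the list in max4, with a mean of 3159, against 119 in Col-0 hypocotyl. The summed intensity of the list was 509 to 536 on Col-0 hypocotyl arrays, 6969 to 7759 in max4 and 4640.1 to 5499 in axr1. It was 867 to 2092 in Ler, 4584 to 5032 in abi1 and 6459 to 7076 in aba1. In xylem it ran from 1515 to 1569 in Col-0, 3052 to 4815 in the MYB61 knockout and 2493 to 4894 in the MYB50 knockout. ORA47, an AP2/ERF factor gene, was at 109 ± 18.5 in Col-0 xylem and 561 ± 161 in MYB61 knockout xylem, and the calmodulin-like gene CML37 at 3.30 ± 2.29 in Ler and 375 ± 62.9 in aba1 (SD, n = 3).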

How the data were processed

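Values were the deposited scaled probe-set intensities of 36 ATH1 arrays, 1 per RNA pool, on a linear scale from 0.0 to 7005.3. The sources used here do not name the software the authors used, and the files hold no detection calls. Of 22746 probe sets that are not controls, 15924 were tested. These had a mean intensity over all 36 arrays, max4 and axr1 included, of at least 14.7 (the 30th percentile). Log2(intensity + 16) was fitted with 12 group means in limma 3.58.1 (R 4.3.3, moderated variances with a trend), 24 residual degrees of freedom. Contrasts were two-sided and adjusted by Benjamini-Hochberg over all tested probe sets, with a threshold of 0.05 ("called"). The log2(intensity + 16) scale understates changes of dim genes. The fit was tested on simulated data.

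The members, lists and named loci were chosen with earlier results of these data known. Named were the 12 members with the highest mean of both differences, per comparison the largest called changes (up to 8 rises and 5 falls from wild type without overlap, up to 4 each way otherwise), the weakest members, the most and least variable, and up to 10 higher in abi1, aba1 and both MYB61 knockout tissues. Families were assigned from general knowledge after the values were seen, and their members and the loci called higher in none are named besides. Of 154 members, 154 matched a locus of the reference gene table (TAIR10.1), and 4 had a name there. Sequences and promoter motifs were not analysed here. Replicate numbers did not pair the arrays: within no comparison did every same-numbered pair of deviations correlate above 0.1 (lowest -0.095, highest 0.215).

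Alternatives were other pseudocounts, filters, quantile normalization, the replicate block, scanner background as a covariate, array weights, the compared arrays alone, and leaving out each array.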

Additional observations from a re-analysis of the deposited data

Results flagged for a closer look

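The results below were picked out because 2 effects under the same contrast differed in a test of the difference itself, by limma over all tested probe sets. Between abi1 and aba1, AT3G21670 (log2 1.37), AT2G38870 (1.18), AT1G19960 (1.09) and AT5G59050 (1.07) were higher in abi1. AT5G35580 (-1.96), AT5G64870 (-1.8), AT5G52020 (-1.67) and AT3G27540 (-1.54) were lower there. The MYB61 knockout effect was higher in xylem than in cork for AT2G32160 (0.67, adjusted p = 0.049).

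The MYB50 knockout effect was higher in xylem for AT5G52050 (2.7), AT3G04210 (2.46), AT1G61890 (2.4) and AT1G19210 (2.33). It was lower in xylem for AT3G62960 (-1.21), AT1G19960 (-1.01), AT5G59050 (-0.84) and AT1G22030 (-0.79).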

How the results depend on the processing

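Of 174 counts recomputed under alternatives, 151 stayed within 1.5 times the reported value, and of 99 values of named loci 76 kept their call under each alternative, 23 lost it under at least 1, and 0 changed direction. Leaving out 1 array at a time gave 86 to 94 members called higher in abi1, 111 to 115 in aba1, 18 to 50 in MYB61 knockout xylem, 42 to 64 in MYB61 knockout cork, 105 to 122 in MYB50 knockout xylem and 25 to 28 in MYB50 knockout cork. It gave 7 to 8 for abi1 over aba1, 0 to 5 and 68 to 108 for the tissue difference of the MYB61 and MYB50 knockouts, 24 to 30 for Col-0 xylem over cork, and 152 to 160 probe sets meeting the limits, of which 142 to 152 were members. With only the arrays of the groups compared, 8 members were called higher in MYB61 knockout xylem and 27 in cork. Such a fit has fewer arrays and takes the spread from the compared groups alone. The members' median SD was 0.35 in both MYB61 knockout tissues and 0.36 in MYB50 knockout xylem, but 0.07 (max4) to 0.2 (Ler) in the other groups. The part of either in the lower counts was not tested. MYB61 knockout xylem replicate 2 was the array whose absence gave 18, and MYB61 knockout cork replicate 1 the one whose absence gave 5. The count of 1 for the MYB61 tissue difference became 2 with array weights and 0 with either other filter, only the compared arrays, a pseudocount of 1, quantile normalization, the scanner background and the replicate block; the causes were not tested. A pseudocount of 1 let 332 probe sets meet the limits and one of 64 let 82, since a larger pseudocount shrinks the differences of dim loci. Quantile normalization gave 145. With the replicate block the counts were 93 in abi1, 117 in aba1, 41 and 58 in MYB61 knockout xylem and cork, 111 and 30 in those of MYB50 and 85 for the MYB50 tissue difference, so it changed none of these by over 1.5 times. A pseudocount of 1 ended the calls of AT5G52020 and AT2G38870 (abi1 against aba1, adjusted p of 0.054 and 0.062) and AT5G52050 (MYB50 tissue difference, adjusted p = 0.087). It also ended those of AT4G14060 and AT5G35580 (abi1, 0.1 and 0.059), AT1G21000 (MYB61 knockout cork, 0.051) and AT2G32160 (MYB61 tissue difference, 0.071). The lost calls given with single loci are not a full list. Dim loci, such as those under 16 in a wild type, limit what can be seen of falls.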
